A study of Mus musculus with 6 samples.

Results

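The genes described are those of 10 proteins of the basement membrane, the laminin chains Lama2, Lama4, Lama5, Lamb1, Lamb2 and Lamc1, the nidogens Nid1 and Nid2, perlecan (Hspg2) and agrin (Agrn). Every probe set whose annotation gave 1 gene symbol, and that symbol was among the 10, was taken. This gave 21 of the 45037 probe sets of the array that were not controls. Of these, 17 had a mean signal above the filter on dim probe sets, which kept 27022 of all probe sets, and each of the 10 genes kept at least 1. Of the 10, 6 kept more than 1 probe set.

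Calf muscle (gastrocnemius and soleus) came from female mice aged 5 weeks, not fasted, of the SJ6/C57BL6 background. They either carried an integrin alpha7 transgene or were wild type. Each of 3 arrays per genotype was hybridised with RNA pooled from 6 animals, so that 18 animals of each genotype were sampled. The titles of the controls also carry the word intronic, whose meaning the labels do not explain, and they do not name the promoter that drives the transgene. The question addressed is whether the transcripts of the ligands that integrin alpha7 and its neighbours bind differ when the receptor is overexpressed.

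A laminin is a cross-shaped trimer of an alpha, a beta and a gamma chain. The alpha chain carries the domains that bind integrins and dystroglycan, and the alpha2 chain is that of the muscle fibre's own basement membrane, where its loss causes a congenital muscular dystrophy. Nidogens join the laminin network to that of type IV collagen, and the heparan sulphate proteoglycans perlecan and agrin bind both laminin and dystroglycan.

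The receptor gene was higher in transgenic muscle, which checks the labels. Itga7, on its single kept probe set, gave signals of 254, 308 and 313 on the wild type arrays and 2498, 2144 and 2072 on the transgenic ones. The difference was 7.32-fold, with an adjusted p of 1.67e-07 in limma, and the groups lay far apart. Folds and differences here and below are on the log2(signal + 16) scale, which understates the change of dim transcripts. Signals are in the arbitrary units of the deposited files and are not compared between probe sets.

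None of the 10 ligand genes was called at an adjusted p of 0.05 in limma on any kept probe set, beside a receptor transcript whose 95% interval ran from 6.28-fold to 8.54-fold. Of the 17 kept probe sets 0 passed, where 0.122% of all probe sets tested did (33 of 27022). The lowest adjusted p was 0.561. At an unadjusted p of 0.05, 1 of the 17 passed, that of Hspg2, where 7.85% of all did. The 3 transgenic arrays lay apart from the 3 wild type arrays for 0 of the 17, where they did for 13.4% of all probe sets. Without transgenic replicate 3 they did for 5 of the 17, where 24.4% of all did. Differences were positive for 9 and negative for 8, where 47.4% of all were positive, with a median of 0.03 on the log2 scale, while the median over all kept probe sets was -0.01.

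The size of change that the arrays allow can be read from the 95% intervals. For 15 of the 17 probe sets the whole interval lay within 1.5-fold in either direction, where 59.5% of all kept probe sets had such an interval. The exceptions were 1 probe set each of Hspg2 and Lama5. Within 2-fold lay the intervals of all 17, against 92.2% of all. The intervals of the members were narrower, with a median half-width of 0.28 on the log2 scale against 0.37 over all kept probe sets. The median absolute log2 difference was 0.11 for the members and 0.12 for all. A p-value here sets the genotypes against the spread from pool to pool, and intervals that hold 0 do not show that the levels were equal.

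**Figure D1:**
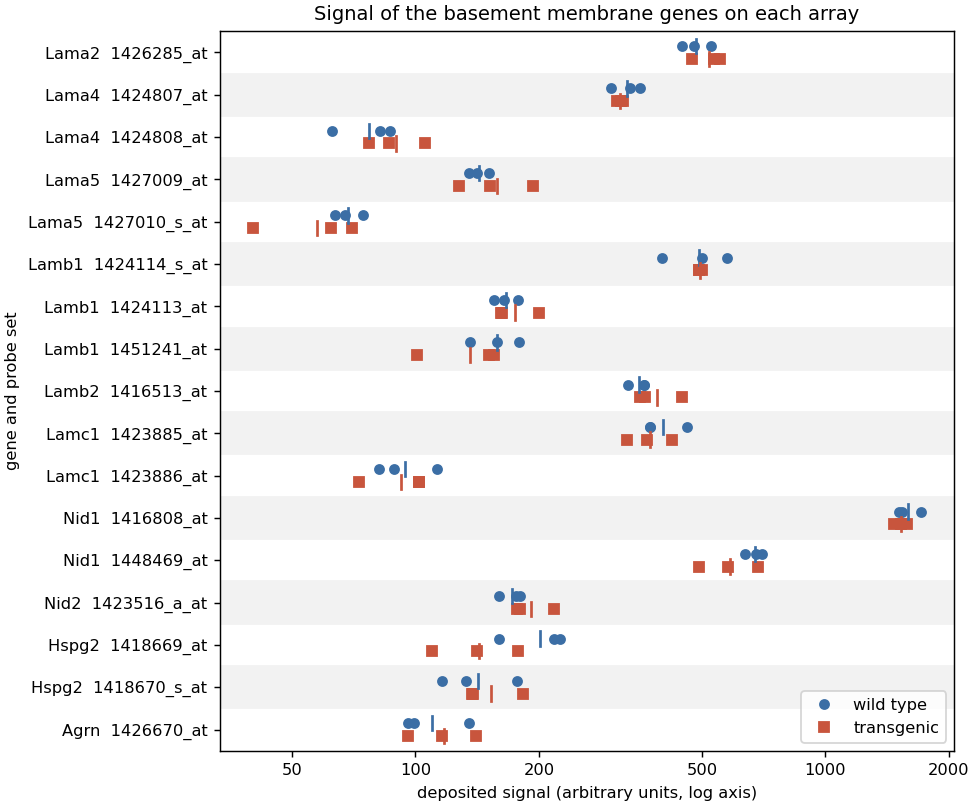
Deposited signal (arbitrary units, log axis) of the 17 kept probe sets of the 10 genes on each of the 6 arrays, with blue circles for wild type, red squares for transgenic muscle and a vertical bar at each group's mean. The groups overlap for every probe set. For Nid1 1416808_at the wild type mean is 1587 and the transgenic mean 1525.

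Among the alpha chains, Lama2, the chain of the muscle fibre's laminin, had signals of 478, 527 and 448 in wild type and 473, 552 and 536 in transgenic muscle. The ranges of the groups overlapped, with the lowest array in the wild type group and the highest in the transgenic one. The difference was 1.07-fold with a 95% interval of 0.925 to 1.24. Its adjusted p was 0.845 in limma. The wild type mean was 484 ± 40.2 and the transgenic one 520.2 ± 42.0 (SD, n = 3 each).

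Lama4 encodes an alpha chain of blood vessels, nerve and the neuromuscular junction. Its brighter probe set, 1424807_at, gave 299.7, 354 and 333 in wild type and 309, 321 and 318 in transgenic muscle. The transgenic arrays lay inside the wild type range, at 0.965-fold with an interval of 0.831 to 1.12. Its dimmer probe set, 1424808_at, gave 81.7, 62.5 and 86.7 against 86.0, 105 and 77.2. This is 1.14-fold with an interval of 0.874 to 1.47, opposite in sign to the brighter one and well within its error.

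Lama5, the alpha chain of vessel walls and many epithelia, showed the same kind of disagreement. On 1427009_at the signals were 135, 151 and 142 in wild type and 128, 193 and 152 in transgenic muscle, a difference of 1.08-fold with an interval of 0.864 to 1.36. The transgenic arrays spread more widely, holding both the lowest and the highest value. On 1427010_s_at they were 67.3, 74.6 and 63.5 against 40.2, 62.1 and 70.0, which is 0.857-fold with an interval of 0.636 to 1.16. Here transgenic replicate 1 was the low array, and without it the log2 difference shrank from -0.22 to -0.04.

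The beta chains form the short arms with the gamma chain, and in muscle beta2 is enriched at the synapse while beta1 is found along the fibre. Lamb1 had 3 kept probe sets. The brightest, 1424114_s_at, gave 398, 501 and 575 in wild type and 493, 493 and 501 in transgenic muscle. The wild type arrays spread widely and the transgenic ones closely, and the difference was 1.02-fold with an interval of 0.850 to 1.22.

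The other Lamb1 probe sets straddled this value. The probe set 1424113_at gave 164, 178 and 155 in wild type and 200.1, 162 and 162 in transgenic muscle, at 1.05-fold. The probe set 1451241_at gave 179, 136 and 158 against 151, 101 and 155, at 0.865-fold with an interval of 0.670 to 1.12. Transgenic replicate 2 was the lowest array on the last one only, and each of the 3 had overlapping groups.

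Lamb2 had 1 probe set, with signals of 362, 361 and 329 in wild type and 352, 364 and 446 in transgenic muscle. Only transgenic replicate 3 stood above the wild type range by more than a few units. The difference was 1.09-fold with an interval of 0.928 to 1.29, and limma gave an adjusted p of 0.814. By round of hybridisation, the log2 difference was -0.01 in the first, with 2 arrays a genotype, and 0.42 in the second, with 1 array each.

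Lamc1 encodes the gamma chain shared by nearly all laminins of muscle. On 1423885_at the signals were 373, 374 and 461 in wild type and 328, 367 and 423 in transgenic muscle. Both groups had replicate 3 highest, and the difference was 0.928-fold with an interval of 0.774 to 1.11. On the dimmer 1423886_at they were 88.7, 81.4 and 113 against 102, 72.8 and 102, at 0.980-fold with an interval of 0.753 to 1.28.

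**Figure D2:**
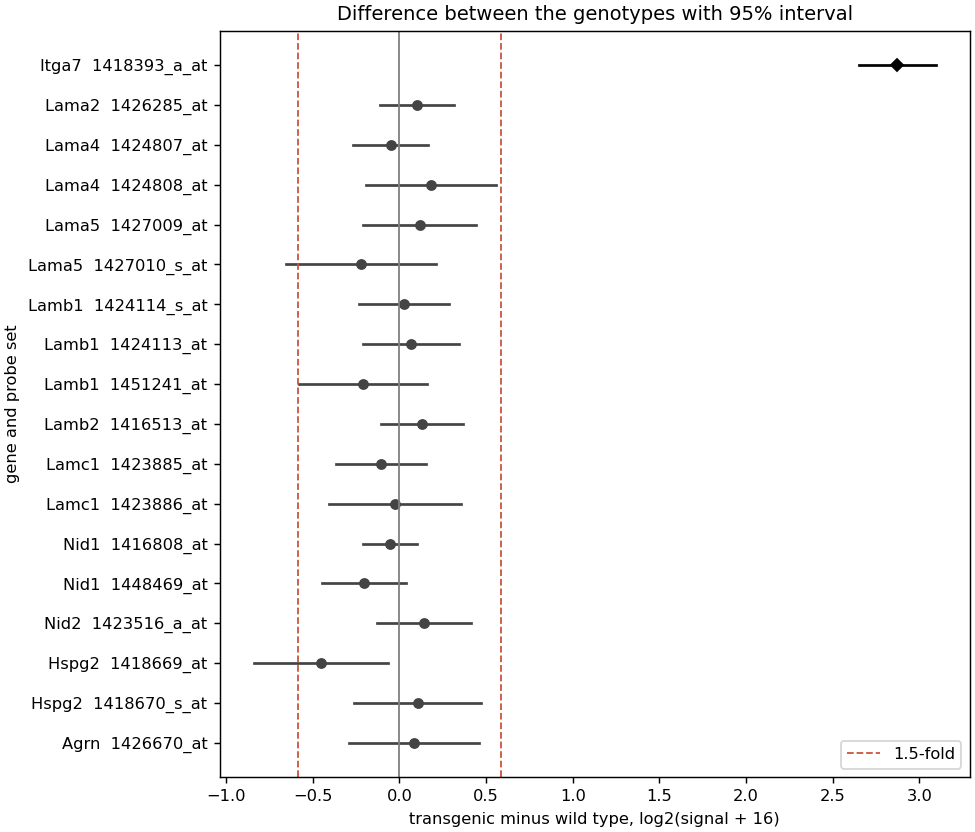
Difference between transgenic and wild type muscle on the log2(signal + 16) scale for Itga7 and the 17 kept probe sets, with points for the estimate and bars for the 95% interval of the limma fit (n = 3 arrays a group). Dashed lines mark 1.5-fold, and 15 of the 17 bars of the ligand genes lie between them, while Itga7 lies at 2.87.

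Nid1 encodes the more widely studied nidogen. On 1416808_at the signals were 1539, 1708 and 1515 in wild type and 1468, 1579 and 1528 in transgenic muscle. The difference was 0.962-fold, and its interval of 0.864 to 1.07 was the narrowest of the 17. On 1448469_at they were 637, 701 and 677 against 578, 493 and 684, where 2 of the 3 transgenic arrays lay below the wild type range and replicate 3 lay within it. This was 0.867-fold with an interval of 0.733 to 1.03, at an adjusted p of 0.703.

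Nid2, its homologue, had signals of 160.0, 176 and 179 in wild type and 180.3, 218 and 177 in transgenic muscle. The groups overlapped by 1 transgenic array, and the log2 difference was 0.14 with an interval of -0.13 to 0.41. The adjusted p was 0.824 in limma.

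Perlecan is a large proteoglycan of basement membranes throughout the body, and at the neuromuscular junction it anchors acetylcholinesterase. Its gene Hspg2 gave the largest difference among the members. On 1418669_at the signals were 217, 160.0 and 225 in wild type and 142, 110 and 178 in transgenic muscle, with means of 201 ± 35.6 and 143 ± 34.3 (SD, n = 3). Of the 3 transgenic arrays, 2 lay below all wild type arrays, and the third lay above wild type replicate 2. The difference was 0.730-fold with an interval of 0.559 to 0.954. In limma the unadjusted p was 0.0250 and the adjusted one 0.561, so that it did not pass over all probe sets.

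The other probe set of Hspg2 did not share this direction. On 1418670_s_at the signals were 133, 177 and 116 in wild type and 137, 138 and 183 in transgenic muscle. This is 1.07-fold with an interval of 0.834 to 1.39. Both groups had 1 array well above the others, wild type replicate 2 and transgenic replicate 3. The difference on 1418669_at was negative in both rounds of hybridisation, at -0.52 and -0.31 on the log2 scale, while that on 1418670_s_at was -0.14 in the first and 0.59 in the second.

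Agrin gathers acetylcholine receptors at the synapse through Lrp4 and MuSK in its neuronal form, and links laminin to dystroglycan in its muscle form. Its gene Agrn gave 135, 99.0 and 95.8 in wild type and 140.4, 96.0 and 116 in transgenic muscle on 1426670_at. The groups covered nearly the same range, at 1.06-fold with an interval of 0.817 to 1.38.

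In all, 4 member probe sets lay below the filter, 1 each of Agrn, Lama5, Lamb1 and Nid1, with signals of 1.19 to 28.6 on the 6 arrays. The signal at the filter was about 21.7. Fitted with all probe sets and no filter, the lowest adjusted p among them was 0.833. Each of these genes also had a kept probe set, described above.

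Probe sets of the same gene can cover different parts of a transcript. Of the 6 genes with more than 1 kept probe set, 4 had probe sets that differed in sign, namely Lama4, Lama5, Lamb1 and Hspg2. The differences between probe sets of 1 gene were compared after their values had been seen, array by array, for all 8 pairs. The largest was that of Hspg2, at -0.56 on the log2 scale, with a two-sided exact permutation p of 0.3 and 0.8 after Benjamini-Hochberg adjustment over the 8. With 3 arrays against 3, this test cannot go below 0.1, so it could not separate the probe sets of any gene.

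Laminin chains of one type can stand in for each other in the trimer, and the nidogens Nid1 and Nid2 are homologues. The changes of paired genes were therefore set against each other within each array, on the brightest probe sets. Lama2 minus Lama4 shifted by 0.15 on the log2 scale in transgenic muscle, with an exact permutation p of 0.2. Lamb1 minus Lamb2 shifted by -0.10, with an exact p of 0.7, and Nid1 minus Nid2 by -0.20, with an exact p of 0.2. After adjustment over the 3 pairs the values were 0.3, 0.7 and 0.3. The groups overlapped in each pair, and the smallest p this two-sided design allows is 0.1. With the mean of each gene's kept probe sets in place of the brightest, the shifts were 0.03, -0.17 and -0.27, in the same order. The shift of Lama2 minus Lama4 thus depended on the choice of probe set.

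Over the members, the arrays differed little. The median deviation of the 17 probe sets from their own means was -0.06 to 0.08 on the log2 scale per array. Transgenic replicate 3 was above the mean on 12 of the 17 and was the lowest array on 0, while transgenic replicates 1 and 2 were above it on 6 each and wild type replicate 1 on 5. The same counts over all kept probe sets were not made, so these are not read as a trait of the members. Between the rounds of hybridisation, 8 of the 17 probe sets had differences of the same sign. The second round held 1 array of each genotype, and the share over all kept probe sets was not computed, so nothing is concluded from this count.

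**Figure D3:**
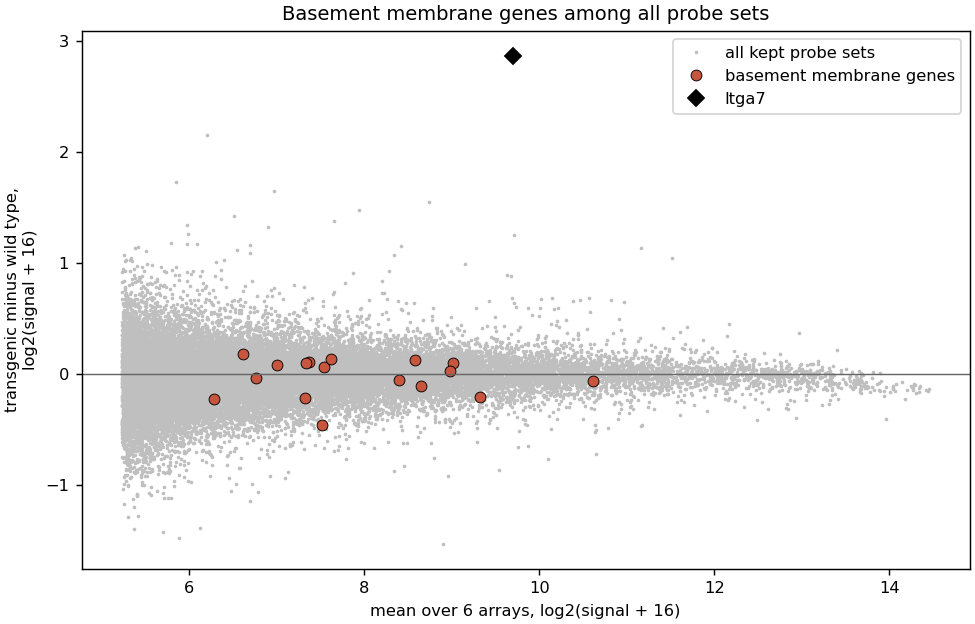
Difference between the genotypes, on the log2(signal + 16) scale, against the mean over the 6 arrays for all 27022 kept probe sets (grey), the 17 of the basement membrane genes (red) and Itga7 (black diamond). The red points lie between -0.45 and 0.18, inside the cloud of probe sets of like signal.

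Other laminin chains, of epithelia and development, were dim. The 4 genes Lama1, Lama3, Lamb3 and Lamc3 were measured by 6 probe sets, with signals of 1.39 to 47.8. Of these 4, only Lamb3 and Lamc3 had a kept probe set. Lamc3 gave 26.3 to 41.4 in wild type and 12.9 to 25.6 in transgenic muscle, with no overlap, but its adjusted p was 0.695 in limma and another probe set of it lay below the filter. Lamb3 gave a log2 difference of 0.06.

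Other components of the basement membrane were represented by a list of 35 genes, with type IV, VI, XV and XVIII collagens, fibulins, netrins and Sparc, of which 32 were kept. None was called in limma, and 13 had positive and 19 negative differences. The arrays did not overlap for 2 of the 32, where they did not for 13.4% of all kept probe sets. The median log2 difference was -0.03, where that over the brightest probe sets of all 12942 genes was -0.00. The smallest p belonged to Ntn4, a netrin that binds laminin gamma chains, at 242 in wild type and 178 in transgenic muscle, 0.751-fold with an adjusted p of 0.418. Col15a1, a collagen next to the muscle basement membrane, gave 0.781-fold and Ecm1 0.852-fold, with adjusted p of 0.644 and 0.668.

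Receptors for laminin, perlecan and agrin were represented by 20 kept genes of 21. Besides Itga7, 0 were called, and of the 20 genes 10 had positive and 10 negative differences, with a median of -0.00. The arrays did not overlap for 4 of the 20, Itga7 among them, where they did not for 13.4% of all kept probe sets. Itgb1, the chain that pairs with alpha7, gave 989 to 1013 in wild type and 772 to 860.2 in transgenic muscle on its brightest probe set, at 0.814-fold with an adjusted p of 0.274 in limma. Mcam, an adhesion receptor of vessels that binds laminin alpha4, gave 0.775-fold with an adjusted p of 0.491.

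Enzymes that build the laminin-binding sugar of dystroglycan were represented by 13 kept genes of 18, with 0 called, 6 positive and 7 negative differences and a median of -0.01. The arrays did not overlap for 2 of the 13, where they did not for 13.4% of all kept probe sets. Pomk, the kinase of this sugar, had the smallest p, at 1.27-fold with an adjusted p of 0.672. Dpm3 and Pomgnt2 followed, at 0.718-fold and 0.900-fold, both with an adjusted p of 0.789.

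Genes of matrix secretion, assembly and turnover were represented by 26 kept genes of 30, with 0 called, 17 positive and 9 negative differences and a median of 0.02. The arrays did not overlap for 4 of the 26, where they did not for 13.4% of all kept probe sets. The smallest p was that of P4hb, a disulphide isomerase of the endoplasmic reticulum and subunit of collagen prolyl hydroxylase, at 2246 ± 75.9 and 2696 ± 58.6 (SD, n = 3), 1.20-fold with an adjusted p of 0.192 in limma. Serpinh1, the collagen chaperone, gave 1.19-fold with an adjusted p of 0.481, and Sulf2, which trims heparan sulphate, 1.29-fold with 0.492.

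Basement membranes in muscle are made by fibres, vessels, nerve and fibroblasts, and in bulk tissue fewer cells of a type and less RNA per cell cannot be told apart. All 8 muscle fibre markers were kept, with differences of -0.17 to -0.08 on the log2 scale, a summed signal of 165296 to 169834 in wild type and 149094 to 157865 in transgenic muscle, and 0 calls. The arrays did not overlap for 6 of them, where they did not for 13.4% of all kept probe sets. Their signals lay near the top of the range, up to 23952, where signal can be compressed. Of 8 endothelial markers 7 had negative differences, with a median of -0.19, a summed signal of 2084 to 2317 in wild type and 1870.4 to 2146 in transgenic muscle, and 0 calls. For 4 of them the arrays did not overlap, beside the same 13.4% of all. Tek, an angiopoietin receptor, gave 0.782-fold with an adjusted p of 0.313. Their part in the values of Lama4, Lama5 and Hspg2, which vessels also express, was not tested.

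Of the remaining markers, 8 of smooth muscle and pericytes had a median of -0.05, 7 of fibroblasts -0.02, 5 of Schwann cells -0.08 and 6 of macrophages -0.07. The medians were -0.04 for 4 adipocyte, -0.03 for 4 skin epithelium and -0.05 for 6 tendon markers, and none of these genes was called. Of the 8 smooth muscle and pericyte markers, 3 had positive and 5 negative log2 differences, from -0.22 to 0.26. The smallest p there was that of Rgs5, at 1.09-fold with an adjusted p of 0.636 in limma. Of the 7 fibroblast markers, 2 had positive and 5 negative differences, from -0.31 to 0.06. The lowest was Dcn, which had the smallest p, at 0.805-fold with an adjusted p of 0.0879 in limma. The ratio of the 3′ to the 5′ control probe sets of Gapdh was 0.802 ± 0.00553 in wild type and 0.788 ± 0.0176 in transgenic muscle (SD, n = 3), with an exact permutation p of 0.4. For Actb it was 0.841 ± 0.0595 and 0.917 ± 0.0428, with an exact p of 0.2.

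**Figure D4:**
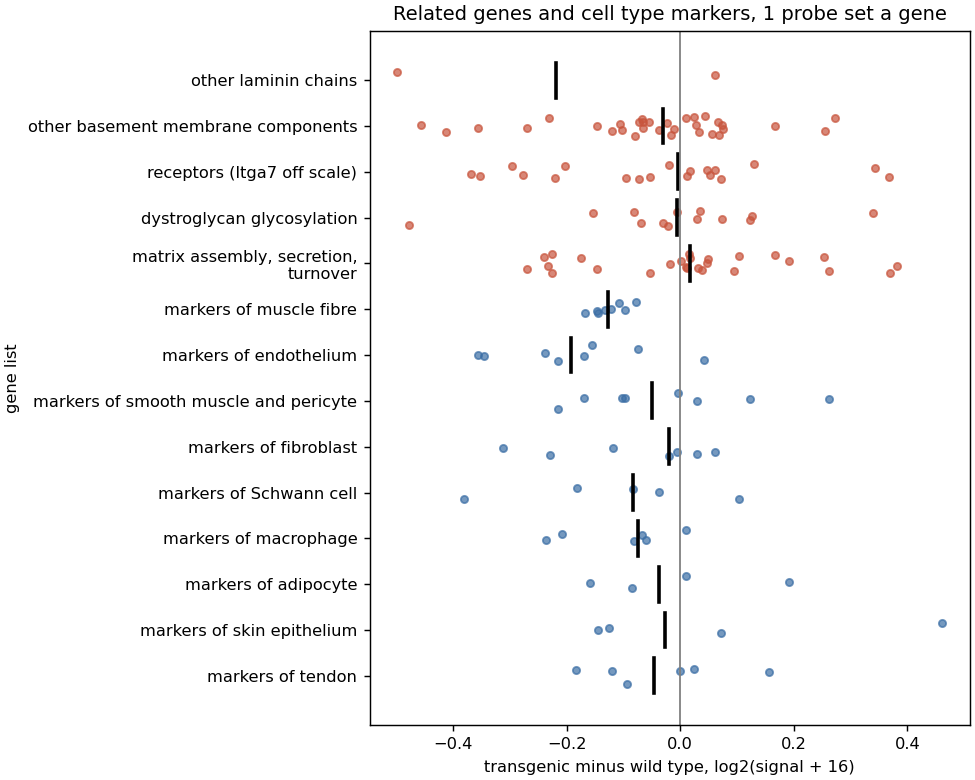
Difference between the genotypes, on the log2(signal + 16) scale, for each gene of the related lists (red) and of the cell type markers (blue), 1 probe set a gene, with a black bar at each list's median. Itga7 lies beyond the axis, the 8 muscle fibre markers lie between -0.17 and -0.08, and the medians of the other lists, apart from the 2 genes of the other laminin chains, lie between -0.19 and 0.02.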

How the data were processed

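Affymetrix Mouse430_2 arrays were used. The deposited intensity per probe set is on a linear scale, and the authors wrote it with GCOS 1.1.1, per the submitters' processing notes. Neither the algorithm nor a genome build is stated in the labels. As the values show, every array was scaled to a mean of 150.0 after trimming 2% at each end. Array medians were 34.0 to 38.4, and correlations between arrays 0.971 to 0.981. The deposited run information, of other content than expression, gave a hybridisation time for each array and 4 fluidics modules, each with 1 genotype. The arrays were grouped by that time into 2 rounds of hybridisation, each with both genotypes. Those hybridised within an hour of the earliest were taken as the first round and the others as the second.

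After leaving out 64 control rows, log2(signal + 16) was fitted for the probe sets with a mean above the 40th percentile, with limma 3.58.1 in R 4.3.3 (moderated variances with an intensity trend, no covariates, two-sided, no further normalization). P-values were adjusted by Benjamini-Hochberg over the 27022 probe sets kept. The fit was tested on simulated data. Figures were drawn with matplotlib 3.10.9.

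Symbols of the platform annotation were brought up to date by gene identifier with a RefSeq table of GRCm38.p6. Of the probe sets, 34945 had 1 symbol, 932 several and 9160 none. No coordinates or sequences are given, since the deposited values name no build. All member probe sets are reported. From each list of related genes the text names up to 3 with the smallest p and any called, on the brightest kept probe set, and of the cell type markers 1 each for endothelium, smooth muscle and fibroblasts. The members and lists were chosen with earlier results of these data known. Single values were compared by exact permutation. Alternatives were other offsets, normalizations, filters, variance models, array weights, blocks and leaving out each array. The number of arrays limits the precision.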

Additional observations from a re-analysis of the deposited data

How the results depend on the processing

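Over 18 alternatives, 0 of the 17 kept member probe sets passed in limma, and 0 of all 21 passed with no filter. Of 306 values, 293 kept the sign of the reported difference and 13 did not, and 9 of the 17 probe sets kept 1 sign throughout. These counts include settings that leave every log2 difference unchanged by construction, so that no sign could turn there. They are the other filters, the fit without intensity trend, and the blocks for replicate number and hybridisation round. The lowest adjusted p was 0.16, for Hspg2 1418669_at with a random block for fluidics module. Its range over the alternatives was 0.16 to 0.816, and its log2 difference was -0.61 to -0.30. Itga7 passed in all 18.

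The count over all probe sets was 50 with equal array medians, 17 with no filter, 1 without the intensity trend, 297 with the module as a random block (each module held 1 genotype, and the correlation within modules was -0.44) and 18 to 39 when 1 array was left out, with 19 and 18 when wild type replicate 1 or 2 was the one left out. The count of members whose arrays do not overlap was 2 with equal array medians (13.2% of all), 0 to 5 when 1 array was left out, with 5 without transgenic replicate 3, 3 without transgenic replicate 1 or wild type replicate 2, 1 without wild type replicate 1 or 3 and 0 without transgenic replicate 2 (22.6% to 24.4% of all), and 6 in hybridisation round 1 alone, a restriction added after the data were seen (38.2% of all).

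Signs turned in round 1 alone for Lamb2, at -0.014, Lamc1 1423886_at, at 0.020, and Hspg2 1418670_s_at, at -0.14, and with equal array medians for Lamc1 1423886_at, at 0.022. When 1 array was left out, the log2 difference was -0.11 to 6.7e-05 for Lama4 1424807_at, -0.027 to 0.24 for Lama5 1427009_at, -0.11 to 0.14 for Lamb1 1424114_s_at, -0.028 to 0.11 for Lamb1 1424113_at, -0.11 to 0.11 for Lamc1 1423886_at, -0.019 to 0.26 for Hspg2 1418670_s_at and -0.036 to 0.22 for Agrn 1426670_at. Lamb1 minus Lamb2 was -0.26 to 0.057, and turned without wild type replicate 3. The cause was not tested.

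With the replicate number as a replicate block, 36 of all probe sets and 0 members passed. Same-numbered arrays had correlations of deviations of 0.00, 0.06 and 0.05, and differently numbered ones -0.08 to 0.02. Of the 6 arrays, 4 correlated best with their own number. Both replicate 3 arrays, and only those, were in the second round of hybridisation. So few arrays cannot settle whether the numbers pair them. The block changed no call of a member.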
